A study of Mus musculus with 24 samples.

Results

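Genes of the cellular defence against oxidants, heme and metals were followed in mouse brain microvessels after stroke, namely Nfe2l2, Hmox1, Nqo1, Gclc, Gclm, Txnrd1, Srxn1, Slc7a11, Mt1 and Mt2. They were taken as the rows of the deposited expression table whose gene symbol equals 1 of these 10 names, and each of them matched 1 of the 17270 genes listed. All 10 passed the filter on low values (over 5 normalized counts on average across all 24 libraries) and are among the 15982 genes tested.

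The study addressed how the neurovascular unit responds to ischemia and reperfusion in the acute and the postacute phase. Male C57BL/6J mice aged 10 to 12 weeks underwent transient occlusion of the right middle cerebral artery (tMCAO) for 60 min, or sham surgery in which the filament was withdrawn as soon as it had reached the artery. Brain microvessels were collected 24 h or 7 days later from the hemisphere on the operated side (ipsilateral) and from the opposite one (contralateral), and polyadenylated RNA was sequenced. Surgery, hemisphere and time point form 8 groups of 3 libraries, and each library pools 3 hemispheres of 1 kind. All mice, the sham-operated ones included, shared a ligated common and external carotid artery on the right side, isoflurane, buprenorphine and the care given after surgery. Vessels came from whole hemispheres, so that infarcted, bordering and intact tissue are mixed. Libraries that the authors set aside as outliers were not analysed here. The 18 libraries other than the ipsilateral ones post-stroke are called controls below. Whether libraries with the same number in both hemispheres come from the same mice is not stated.

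Values are normalized counts, that is, reads of a gene divided by a factor for the depth of the library and rounded by the authors. Library totals lay between 15924780 and 18787932 normalized counts, and the log2 values of replicates correlated with r between 0.967 and 0.988. Endothelial markers were strong in every library, with 366604 to 572983 normalized counts summed over 10 genes. Markers of other cell types were present as well, among them 77836 to 182362 for mural cells (8 genes). Ipsilaterally 24 h post-stroke, the sum of 7 neutrophil and monocyte markers was 3006 to 5741, against 311 to 1131 after sham surgery. In such bulk RNA, fewer cells of a type and less RNA per cell cannot be told apart. P-values measure the spread between these pooled libraries only.

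NRF2, the transcription factor encoded by Nfe2l2, is held in the cytoplasm and handed to degradation by KEAP1. Oxidants and electrophiles disable KEAP1, whereupon NRF2 pairs with small MAF proteins and binds antioxidant response elements in front of genes for glutathione synthesis, thioredoxin reduction, quinone reduction and heme breakdown. NRF2 is controlled largely at the level of the protein, so that its transcript need not follow its activity. Metallothioneins are small cysteine-rich proteins that bind zinc and copper and take up oxidants. Their genes respond to zinc through the factor MTF1 and metal response elements, and also to glucocorticoids and cytokines. In the brain they are known as products of astrocytes and vessels after injury.

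Promoter sequences are shown because the members share these elements unequally. RefSeq (GRCm38.p6) held windows for 8 of the 10 members. Hmox1 and Gclc had no entry. Each window, from 250 bases before to 50 bases after an annotated start, was searched on both strands for the core of the antioxidant response element (TGACNNNGC) and of the metal response element (TGCACNC or TGCGCNC). The bases before the start are printed, 5′ to 3′ on the strand of the gene, for Gclm and Txnrd1 with the antioxidant core in capitals and for Mt1 and Mt2 with the metal cores in capitals.
Gclm, chr3:122245307-122245556, + strand: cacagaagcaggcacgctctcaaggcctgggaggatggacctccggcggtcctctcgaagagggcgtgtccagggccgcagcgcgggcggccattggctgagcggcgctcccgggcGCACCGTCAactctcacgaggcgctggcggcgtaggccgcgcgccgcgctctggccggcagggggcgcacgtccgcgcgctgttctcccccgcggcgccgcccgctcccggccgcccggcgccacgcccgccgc
Txnrd1, second of 3 annotated starts, chr10:82858956-82859205, + strand: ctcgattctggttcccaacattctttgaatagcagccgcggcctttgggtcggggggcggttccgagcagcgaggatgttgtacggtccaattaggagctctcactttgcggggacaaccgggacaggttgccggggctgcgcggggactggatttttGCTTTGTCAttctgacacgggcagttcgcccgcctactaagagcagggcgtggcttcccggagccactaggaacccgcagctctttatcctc
Mt1, chr8:94178839-94179088, + strand: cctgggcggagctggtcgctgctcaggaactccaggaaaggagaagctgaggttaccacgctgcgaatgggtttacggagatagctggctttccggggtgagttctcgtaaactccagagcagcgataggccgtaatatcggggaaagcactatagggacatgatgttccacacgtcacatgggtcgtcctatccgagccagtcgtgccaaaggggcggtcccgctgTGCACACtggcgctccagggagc
Mt2, chr8:94172368-94172617, + strand: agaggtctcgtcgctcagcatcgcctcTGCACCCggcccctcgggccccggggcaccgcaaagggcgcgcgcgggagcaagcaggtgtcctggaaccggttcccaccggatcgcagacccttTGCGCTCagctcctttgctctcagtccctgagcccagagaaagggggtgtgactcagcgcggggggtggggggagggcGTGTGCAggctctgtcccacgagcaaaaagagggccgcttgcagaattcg
An antioxidant core was present in 12.4% of 32851 windows of all genes. Among the members it occurred once each in the windows of Nfe2l2 (240 bases before the start), Gclm (134), the second start of Txnrd1 (92), Mt2 (79) and Srxn1 (28 bases after the start), and not in those of Nqo1, Slc7a11, Mt1 or the other starts of Txnrd1. Metal cores were found in 25.7% of all windows, and 3 or more of them in 1.97%. Mt2 had 4, of which 3 are in the printed bases, Mt1 had 3, of which 1 is printed, and Gclm also had 3, of which 2 lie in the printed bases and 1 shares 3 bases with the antioxidant core. Srxn1 had 1 and the other members none. These are matches of letters only.

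Gclm, Txnrd1, Slc7a11 and Mt2 overlap annotated genes on the opposite strand. The library kit marks the strand, but whether the counting used it is not given in the sources used here. The paper states that reads which matched several genes or regions were left out. Whether reads of such pairs were assigned to a gene or left out therefore cannot be told. Nfe2l2, Gclm, Txnrd1 and Slc7a11 also overlap annotated genes on their own strand, among them protein-coding Eid3 with Txnrd1 (1305 bases). The strand cannot separate these.

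At 24 h post-stroke, 5 of the 10 genes were higher in the ipsilateral hemisphere than after sham surgery and 0 were lower. These were Hmox1, Nqo1, Srxn1, Gclm and Txnrd1, that is, enzymes of heme breakdown, quinone reduction, peroxiredoxin repair, glutathione synthesis and thioredoxin reduction. Nfe2l2 itself and the cystine transporter gene Slc7a11 did not pass, and neither did the metallothioneins, whose libraries varied widely. A gene is called regulated when limma's Benjamini-Hochberg adjusted p over all genes tested was under 0.05 and the log2 fold change of normalized counts + 1 exceeded 0.585 in size. Of all genes tested, 10% were regulated and higher in this comparison and 8.23% regulated and lower. The median log2 fold change was 1.37 over the 10 members and -0.02 over all genes tested. Beside the rise of neutrophil and monocyte markers given above, endothelial markers had 366604 to 404457 normalized counts post-stroke against 413408 to 511752 after sham surgery. Neuron markers (7 genes) had 1691 to 2414 against 4724 to 4880 and mural cell markers 77836 to 137784 against 138846 to 163231, both lower without overlap. Erythroid markers (6 genes) overlapped (6869 to 20965 against 1065 to 12545). The part of these cells in the members' levels was not tested.

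Nfe2l2 (chr2:75675513-75704641, - strand in mm10, as all coordinates below) had 2881, 2889 and 2578 normalized counts in replicates 1, 2 and 3 of the ipsilateral hemispheres 24 h post-stroke, and 2094, 2413 and 2579 after sham surgery. The ranges only just overlapped, and the log2 difference of 0.24 ± 0.18 (SE) did not pass (limma, adjusted p = 0.324, 95% interval -0.14 to 0.61). At 7 days the values were 3058, 2790 and 1910 post-stroke and 2358, 2090 and 3223 after sham surgery, with a log2 difference of 0.01 (95% interval -0.36 to 0.39). Over the 8 groups the means lay between 2217 and 2783, and every group overlapped with the next in the order of means.

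Hmox1 (chr8:75093621-75100589, + strand), which encodes heme oxygenase 1 and opens the heme ring to yield biliverdin, carbon monoxide and iron, showed the largest difference of the 10 genes. Ipsilaterally 24 h post-stroke it had 6397, 7461 and 2069 normalized counts, against 248, 408 and 415 after sham surgery and 534, 510 and 438 in the contralateral hemispheres post-stroke. The 3 ipsilateral libraries lay above all 18 controls, the highest of which had 534, although replicate 3 reached less than the others. How many of all genes tested lay above or below all 18 controls was not counted. Such statements, here and for the genes below, are therefore a description only. The log2 fold change against sham surgery was 3.73 ± 0.35 (SE), or 13.3-fold (limma, adjusted p = 5.77e-07). At 7 days the ipsilateral libraries post-stroke had 679, 425 and 357 and the sham libraries 326, 278 and 427, so that 1 library lay above all controls and the ranges overlapped (log2 difference 0.47 ± 0.35, adjusted p = 0.41).

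Nqo1 (chr8:107388225-107403206, - strand) encodes a quinone reductase. It had 568, 750 and 336 normalized counts ipsilaterally 24 h post-stroke and 131, 149 and 108 after sham surgery. Again each of the 3 libraries lay above all 18 controls (67 to 185), and replicate 3 was the lowest (log2 fold change 2.02 ± 0.32, limma, adjusted p = 1.39e-04). At 7 days the 157, 181 and 137 normalized counts post-stroke overlapped with 146, 148 and 107 after sham surgery. The log2 difference at 7 days was 0.25 ± 0.32.

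Both subunits of glutamate-cysteine ligase, which makes the first bond of glutathione, were measured. The modifier subunit Gclm (chr3:122245557-122270732, + strand) had 3440, 4267 and 2294 normalized counts ipsilaterally 24 h post-stroke and 1751, 1445 and 1467 after sham surgery, all 3 above the 18 controls (log2 fold change 1.06 ± 0.15, limma, adjusted p = 4.55e-05). The catalytic subunit Gclc (chr9:77754535-77794485, + strand) had 997, 946 and 767 against 674, 623 and 695. Its ranges did not overlap either, as was true of 49% of all genes tested, and its adjusted p was 0.00545. With a log2 difference of 0.44 ± 0.11, however, it stayed below the limit on the fold change and was not called regulated. It was called at 0.60 once transcript length and GC content had been corrected for. At 7 days Gclm had 2127, 1963 and 2074 post-stroke against 1608, 1715 and 1617, without overlap. The difference did not pass (log2 difference 0.32 ± 0.15, limma, adjusted p = 0.164), and the share of all genes tested without overlap at 7 days is not given here. Gclc was at 579, 571 and 594 against 544, 577 and 547.

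Srxn1 and Txnrd1 keep thioredoxin and peroxiredoxins in their reduced, working form. Txnrd1 (thioredoxin reductase 1, chr10:82833951-82897712, + strand) had 2750, 2723 and 1934 normalized counts ipsilaterally 24 h post-stroke and 1207, 1315 and 1375 after sham surgery. All 3 libraries exceeded the 18 controls, which ended at 1420 (log2 fold change 0.91 ± 0.13, limma, adjusted p = 3.72e-05). Srxn1 (sulfiredoxin 1, chr2:152105524-152111376, + strand) had 2144, 2543 and 947 against 469, 458 and 714, again above all controls, of which the highest had 926 (log2 fold change 1.69 ± 0.33, adjusted p = 8.84e-04). At 7 days Txnrd1 had 1410, 1209 and 1209 post-stroke against 1235, 1052 and 1411, with a log2 difference of 0.06 ± 0.13. Srxn1 had 627, 461 and 431 against 602, 466 and 926, with a log2 difference of -0.35 ± 0.33. Both overlapped with the sham libraries.

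**Figure D1:**
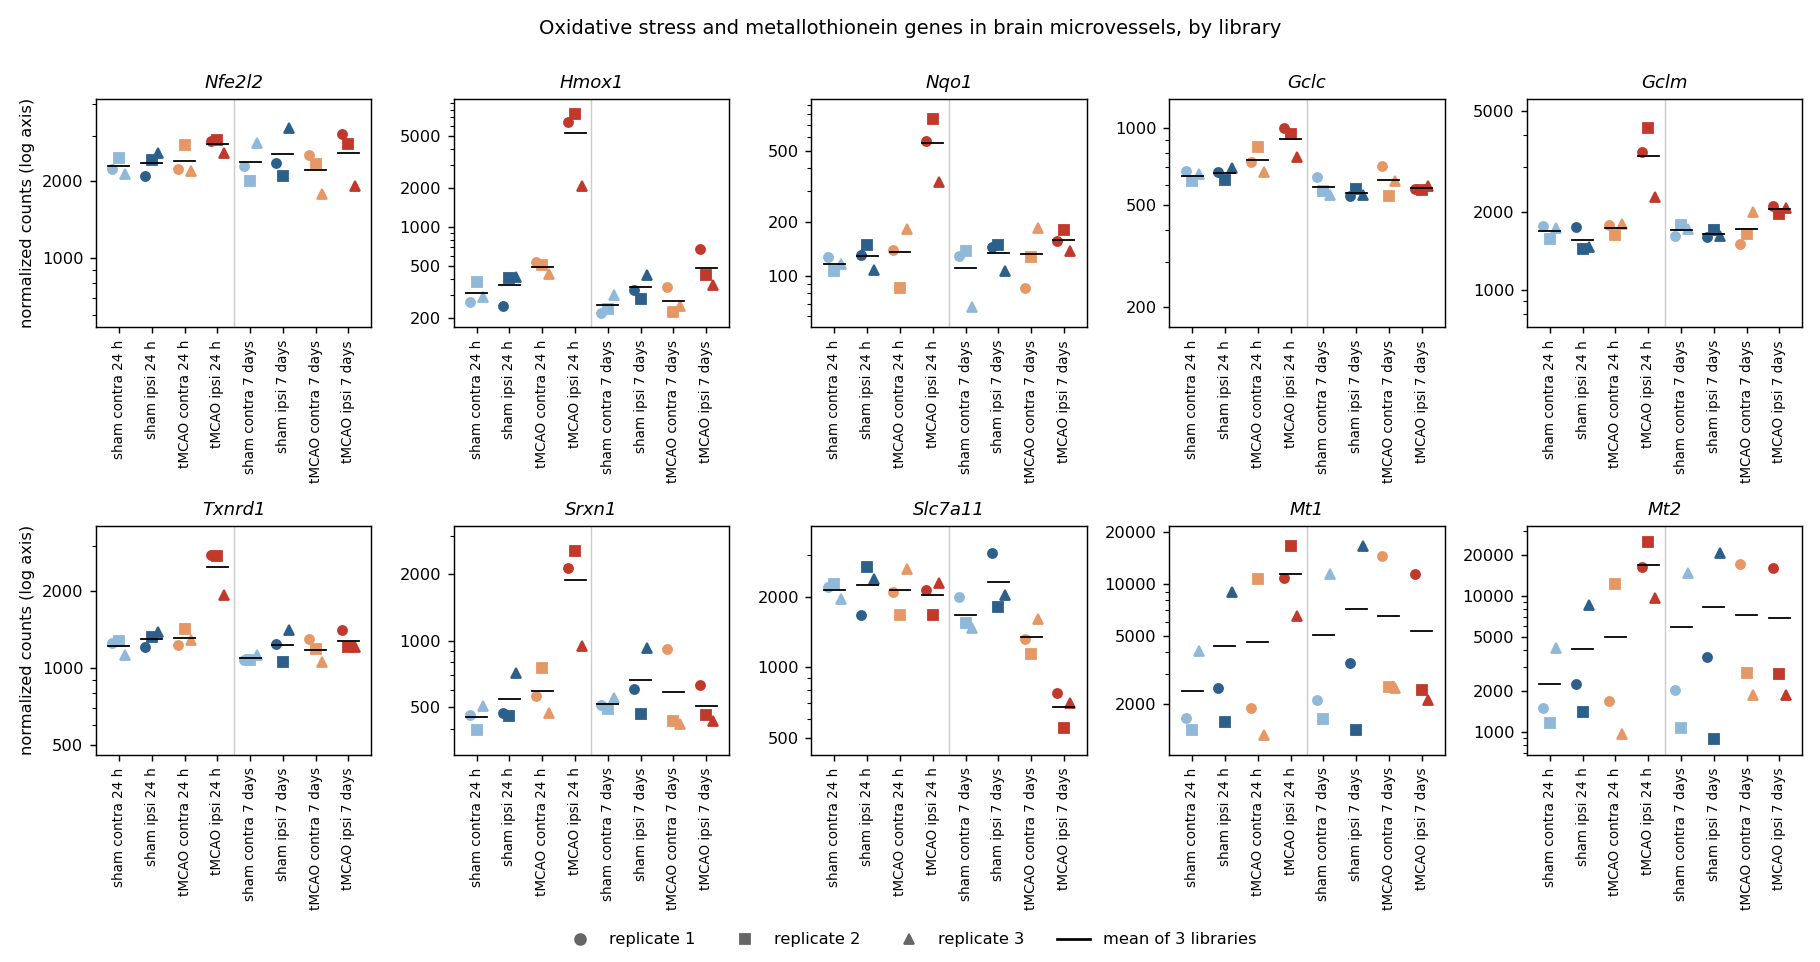
Normalized counts (log axis) of the 10 genes in each of the 24 libraries, by group, with 3 symbols for the replicate numbers and a line at the mean of 3 libraries. Red points are the ipsilateral hemispheres after tMCAO. At 24 h all 3 of them stand above the other 7 groups for Hmox1, Nqo1, Gclm, Txnrd1 and Srxn1. At 7 days all 3 stand below the other 7 groups for Slc7a11. How many of all genes tested do either was not counted. Mt1 and Mt2 spread widely in most groups.

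At 7 days post-stroke, 1 of the 10 genes was regulated, and it was lower. This was Slc7a11, whose product xCT imports cystine in exchange for glutamate and so feeds glutathione synthesis. Of all genes tested, 9.95% were regulated and lower and 3.27% regulated and higher in this comparison. The median log2 fold change of the 10 members was 0.06, against 0.02 over all genes tested.

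Slc7a11 (chr3:49892526-50443614, - strand) had 772, 550 and 703 normalized counts ipsilaterally 7 days post-stroke. The sham libraries of the same hemisphere had 3075, 1800 and 2028 and the contralateral libraries post-stroke 1319, 1134 and 1599. Each ipsilateral library post-stroke lay below all 18 controls, the lowest of which had 1134. Against sham surgery the log2 fold change was -1.74 ± 0.21, or 0.299 times the sham level (limma, adjusted p = 1.52e-05), and against the contralateral hemisphere it was -1.0 ± 0.21 (adjusted p = 0.00211). At 24 h the gene had 2145, 1670 and 2285 post-stroke against 1665, 2664 and 2373 after sham surgery, with full overlap and a log2 difference of -0.12 (95% interval -0.57 to 0.33).

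Markers of several other cell types were also lower, without overlap, in the ipsilateral libraries 7 days post-stroke, and their part in the level of Slc7a11 was not tested. Summed astrocyte markers (7 genes) were 9211 to 12259 normalized counts against 13903 to 29671 after sham surgery. Of these, Slc1a2, which encodes a glutamate transporter, had 2742 to 4007 against 8355 to 16491. Within the same list Gfap, the filament protein of reactive astrocytes, had higher values post-stroke without overlap (3453 to 5327 against 1008 to 3327, log2 difference 1.44 ± 0.55, limma, adjusted p = 0.0821), and S100b overlapped (477 to 608 against 485 to 681). Choroid plexus markers (6 genes) were 654 to 3121 against 15808 to 28981, neuron markers (7 genes) 473 to 841 against 3655 to 6636, and mural cell markers (8 genes) 97304 to 128917 against 164861 to 170827. Endothelial markers overlapped (430389 to 572983 against 373565 to 517049). Of the choroid plexus markers, Ttr remained at 556 to 2804 and Kcnj13 at 2 to 20 normalized counts post-stroke, against 15074 to 27838 and 82 to 119.

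**Figure D2:**
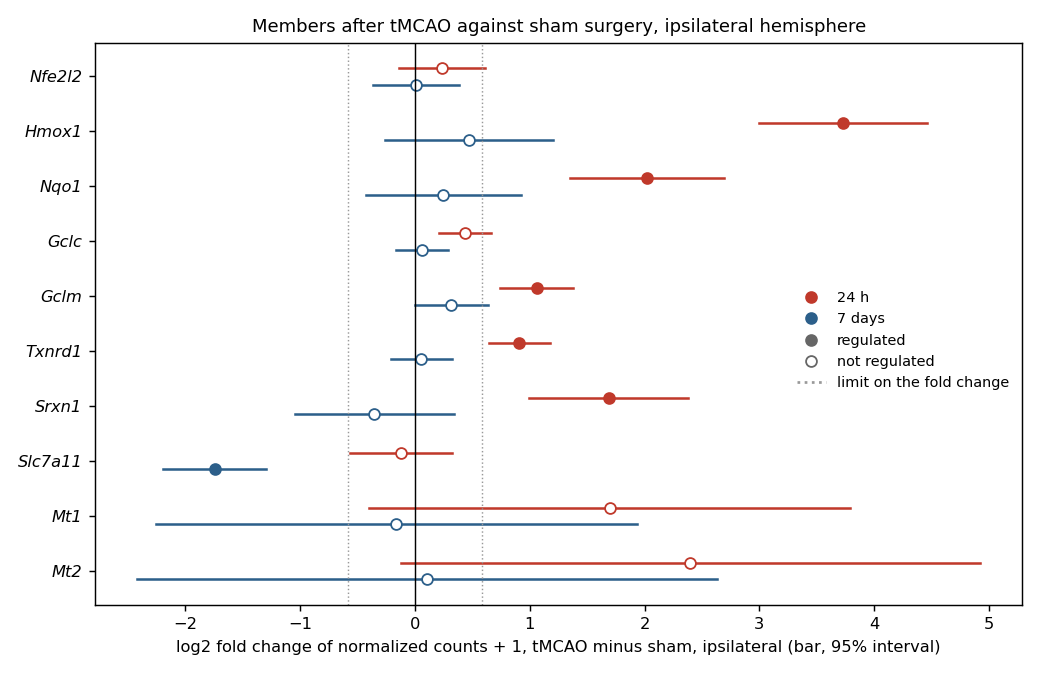
Log2 fold change of normalized counts + 1, tMCAO minus sham surgery in the ipsilateral hemisphere, at 24 h (red) and 7 days (blue), with 95% intervals from limma; filled points are regulated and dotted lines mark the limit of 0.585. At 24 h 5 genes are filled, from Txnrd1 at 0.91 to Hmox1 at 3.73, and Slc7a11 alone at 7 days (-1.74), while the intervals of Mt1 and Mt2 span several log2 units.

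Compared directly, 7 of the 10 genes were lower in the ipsilateral hemispheres 7 days post-stroke than 24 h post-stroke, where 8.44% of all genes tested were regulated and lower. They were Hmox1 (log2 fold change -3.30 ± 0.35), Srxn1 (-1.79 ± 0.33), Nqo1 (-1.73 ± 0.32), Slc7a11 (-1.59 ± 0.21), Txnrd1 (-0.94 ± 0.13), Gclm (-0.65 ± 0.15) and Gclc (-0.63 ± 0.11). Gclm and Gclc lay close to the limit on the fold change. Gclm was at -0.45 and Gclc at -0.55, both no longer called, without replicate 2 and replicate 1, respectively, of the ipsilateral libraries 24 h post-stroke. Of the 10 genes, 0 were regulated and higher at 7 days.

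The difference between the stroke effects at the 2 time points was tested itself, as an interaction. For 6 genes the effect at 7 days was lower than at 24 h, where 5.68% of all genes tested passed in that direction. The interaction was -3.26 ± 0.50 for Hmox1 (limma, adjusted p = 4.19e-04), -2.04 ± 0.47 for Srxn1 (0.00904), -1.77 ± 0.46 for Nqo1 (0.0182), -0.85 ± 0.18 for Txnrd1 (0.00515) and -0.74 ± 0.21 for Gclm (0.0317). In these 5 genes a higher level at 24 h had passed. In the sixth, Slc7a11, a lower level at 7 days had passed instead (-1.62 ± 0.30, adjusted p = 0.00224). For Gclm 9 of 12 fits with 1 library left out did not pass (adjusted p up to 0.0855). Those that passed had left out replicate 1 of the sham ipsilateral libraries at 24 h, replicate 3 of the ipsilateral libraries 24 h post-stroke or replicate 1 of those 7 days post-stroke. The interaction of Nqo1 did not pass without replicate 2 of the ipsilateral libraries 24 h post-stroke (adjusted p = 0.0562).

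The contralateral hemispheres served as a further control at the same time points. This comparison shares the ipsilateral libraries post-stroke with that against sham surgery and is not independent of it. At 24 h the same 5 genes were higher ipsilaterally, at log2 fold changes of 3.23 (Hmox1), 2.0 (Nqo1), 1.57 (Srxn1), 0.90 (Txnrd1) and 0.89 (Gclm), where 8.52% of all genes tested were regulated and higher. Mt2 had 16240, 25096 and 9642 ipsilaterally and 1694, 12241 and 956 contralaterally, and Mt1 had 10854, 16634 and 6532 against 1889, 10638 and 1314, both with overlap. Neither passed (log2 difference 2.54 ± 1.21, limma, adjusted p = 0.132 for Mt2, and 1.83 ± 1.0, adjusted p = 0.193 for Mt1), although Mt2 did without replicate 2 of the contralateral libraries (3.63, adjusted p = 0.0489). Both passed with same-numbered hemispheres as a block, a pairing that is not stated (limma, adjusted p = 9.63e-05 for Mt2 and 3.48e-04 for Mt1). At 7 days Slc7a11 was the only member called, where 9.98% of all genes were regulated and lower. Hmox1 at 7 days had 679, 425 and 357 ipsilaterally and 345, 222 and 247 contralaterally. These ranges did not overlap, and the share of all genes tested without overlap in this comparison is not given here. The log2 difference of 0.81 ± 0.35 did not pass (limma, adjusted p = 0.133). With the same block it did (limma, adjusted p = 0.0207).

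Among the controls, 0 of the 10 genes were regulated in each of 7 comparisons. In limma's test the unadjusted p was under 0.05 for 1 gene between the sham ipsilateral time points (Gclc, against 14.1% of all genes tested), for 3 between the contralateral time points post-stroke (Hmox1, Gclc and Slc7a11, against 16.5%) and for 0 in the other 5 comparisons. The share of all genes tested that was regulated in either direction was 0% between the sham hemispheres at 24 h and also at 7 days, and 0% contralaterally between tMCAO- and sham-operated mice at 24 h. It was 0.0313% between those at 7 days, 0% between 24 h and 7 days in the contralateral hemispheres post-stroke, and 0.476% and 0.332% between the time points in the ipsilateral and contralateral sham hemispheres. Where all genes gave 0, limma gave between 359 and 2637 genes an unadjusted p under 0.05. Hmox1 had 534, 510 and 438 normalized counts contralaterally 24 h post-stroke and 265, 374 and 287 after sham surgery, which did not overlap. The share of all genes tested without overlap in this comparison is not given here, so this is a description only. The log2 difference of 0.69 had an unadjusted p of 0.0637 in limma and did not pass the adjustment.

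In the order of group means, the ipsilateral hemispheres 24 h post-stroke came first for 9 of the 10 genes. For Hmox1, Nqo1, Gclm, Txnrd1 and Srxn1 this group did not overlap with the next one, whereas for Nfe2l2, Gclc, Mt1 and Mt2 it did. Gclm was alone in having a second gap between neighbours. Its ipsilateral hemispheres 7 days post-stroke (mean 2055) did not overlap with the next group, the contralateral hemispheres 24 h post-stroke (mean 1743). They did overlap with the contralateral hemispheres 7 days post-stroke (1963 to 2127 against 1509 to 2005). Slc7a11 ran in another order. Its sham ipsilateral groups came first (means 2301 at 7 days and 2234 at 24 h), and the contralateral (1351) and ipsilateral (675) hemispheres 7 days post-stroke came last, without overlap between the last 2. All other neighbours in these orders overlapped. How often such orders and gaps occur among all genes tested was not counted, so they are a description only.

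Replicate 3 of the ipsilateral libraries 24 h post-stroke was the lowest of its group for 9 of the 10 genes, Slc7a11 excepted. Without it the 5 genes were still called, and Hmox1 reached a log2 fold change of 4.31, the highest of the 6 fits with 1 library left out (lowest 3.38). The ranges over these fits were 1.76 to 2.34 for Nqo1, 1.41 to 2.12 for Srxn1, 0.86 to 1.31 for Gclm and 0.82 to 1.08 for Txnrd1. Slc7a11 at 7 days stayed between -1.90 and -1.51 when 1 library was left out.

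Mt1 (chr8:94179082-94180327, + strand) and its neighbour Mt2 (chr8:94172664-94173568, + strand) were the most abundant of the 10 genes per length, at 9231 and 15760 normalized counts per kilobase on average over the 24 libraries, against 118 to 1928 for the other 8. They were also the most variable. The SD of log2 values within groups was 1.37 for Mt1 and 1.65 for Mt2, higher than in 99.6% and 99.8% of all genes tested, whose median was 0.24. This spread is what their tests were measured against.

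Mt2 had 16240, 25096 and 9642 normalized counts ipsilaterally 24 h post-stroke, against 2226, 1401 and 8554 after sham surgery. The ranges did not overlap, although replicate 3 of the sham libraries came close to the lowest library post-stroke. The log2 fold change of 2.40 ± 1.21 did not pass (limma, adjusted p = 0.137), and it was 3.16 (adjusted p = 0.09) without that sham library. Mt1 had 10854, 16634 and 6532 against 2474, 1573 and 8913. Its ranges overlapped through the same sham library, and the log2 fold change was 1.70 ± 1.0 (adjusted p = 0.206). When only the 2 groups compared were fitted, so that the spread came from them alone, Mt2 passed (adjusted p = 0.0239) and Mt1 did not (0.0657).

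Each surgery and time point held 1 replicate number with high metallothioneins in both hemispheres. Among the sham libraries it was replicate 3 at 24 h, with 4127 contralaterally and 8554 ipsilaterally for Mt2, and replicate 3 at 7 days, with 14734 and 20624. After tMCAO it was replicate 2 at 24 h, with 12241 and 25096, and replicate 1 at 7 days, with 17267 and 16040. The highest library of Mt1 and Mt2 thus carried the same number in both hemispheres in 4 of 4 sets, and so did that of Srxn1. Numbers were shared in 3 of 4 sets for Nfe2l2 and Slc7a11, in 2 for Hmox1, Gclm and Txnrd1, in 1 for Nqo1 and in none for Gclc. Each set holds only 3 numbers, and the same counts over all genes tested were not taken. With these 8 libraries left out, an alternative chosen after seeing the data and not evaluated for Mt1 and Mt2 themselves, the other 8 members gave again 5 genes higher at 24 h and 1 lower at 7 days.

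Set side by side, same-numbered libraries gave their highest hemisphere ratios of the metallothioneins in replicates 1 and 3 at 24 h post-stroke. The ratio of ipsilateral to contralateral Mt2 was 9.59, 2.05 and 10.1 in replicates 1, 2 and 3 at 24 h post-stroke. It was 1.5, 1.21 and 2.07 after sham surgery. The lowest ratio post-stroke was thus just below the highest after sham surgery. At 7 days post-stroke the ratios were 0.929, 0.993 and 1.0, and 1.75, 0.829 and 1.4 after sham surgery. For Mt1 the ratios at 24 h post-stroke were 5.75, 1.56 and 4.97, and at 7 days 0.784, 0.961 and 0.847. After sham surgery they were 1.49, 1.12 and 2.2 at 24 h and 1.64, 0.859 and 1.46 at 7 days, so that replicate 3 after sham surgery exceeded replicate 2 post-stroke at 24 h. For comparison, those of Hmox1 were 12.0, 14.6 and 4.72 at 24 h and 1.97, 1.91 and 1.45 at 7 days, against 0.936, 1.09 and 1.45 and 1.49, 1.2 and 1.41 after sham surgery.

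**Figure D3:**
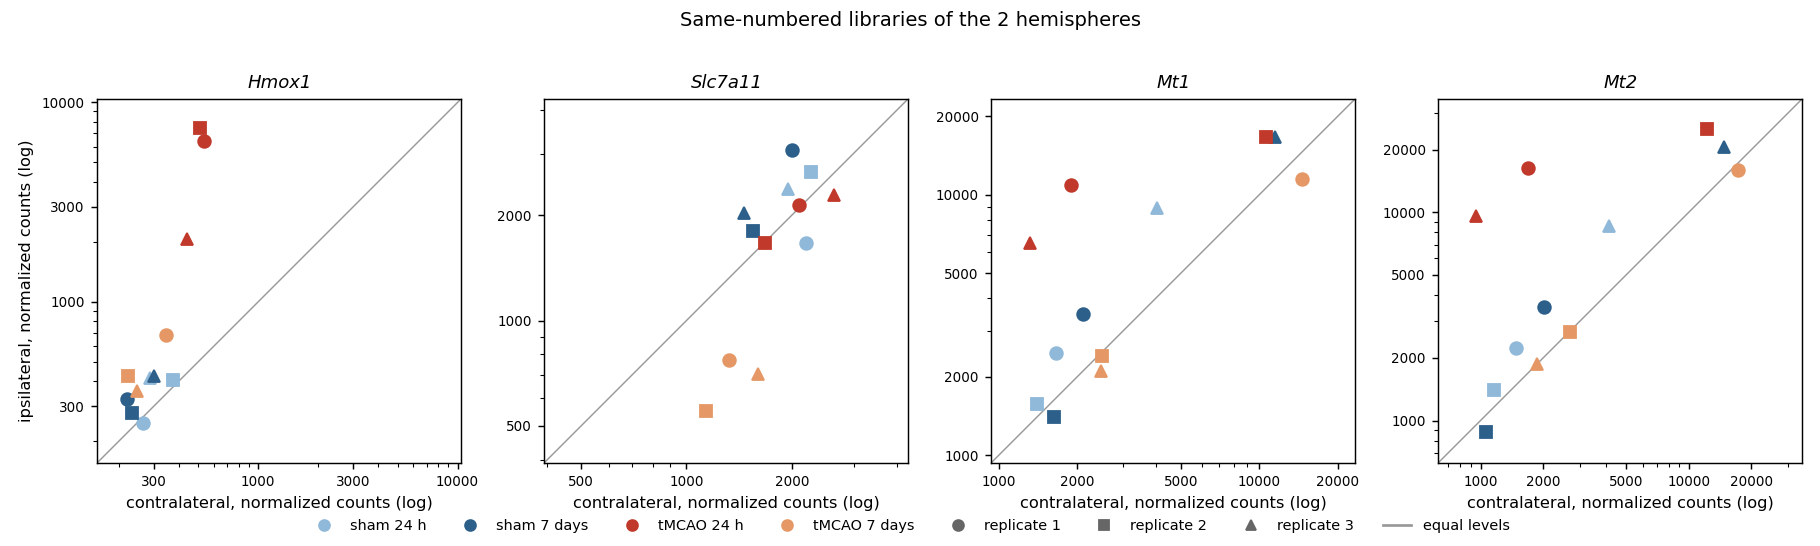
Ipsilateral against contralateral normalized counts (log axes) of Hmox1, Slc7a11, Mt1 and Mt2, with 1 point for each replicate number of each surgery and time point and a line of equal levels. For Mt1 and Mt2 most points lie along the line over a wide range. Those of tMCAO at 24 h (red) stand above it, by a ratio of up to 10.1 for Mt2. The sham points at 24 h also lie above it, by up to 2.2 for Mt1 and 2.07 for Mt2. Replicate 2 of tMCAO at 24 h lies within their range (1.56 and 2.05). The 3 red points of Hmox1 rise at nearly constant contralateral level. For Slc7a11 the 3 points of tMCAO at 7 days lie below the line.

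The 2 metallothioneins moved together, with r = 0.992 between their log2 values over the 24 libraries, which share their normalization. Their ratio was not constant, however. Mt1 over Mt2 was 0.663 to 0.677 in the ipsilateral libraries 24 h post-stroke, a narrower range than in any other group, and 0.715 to 1.60 in the other 21 libraries. All 18 controls lay at 0.776 or above. Among the controls the ratio also differed with the level. It was 0.808 in replicate 3 of the sham ipsilateral libraries at 7 days, where Mt2 had 20624 normalized counts, and 1.60 in replicate 2 of that group, where Mt2 was at its minimum of 879. Of the 482 stretches of 30 bases in Mt2, 270 also occur in an antisense gene, Gm45774, whose highest level in a library was 21 normalized counts.

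**Figure D4:**
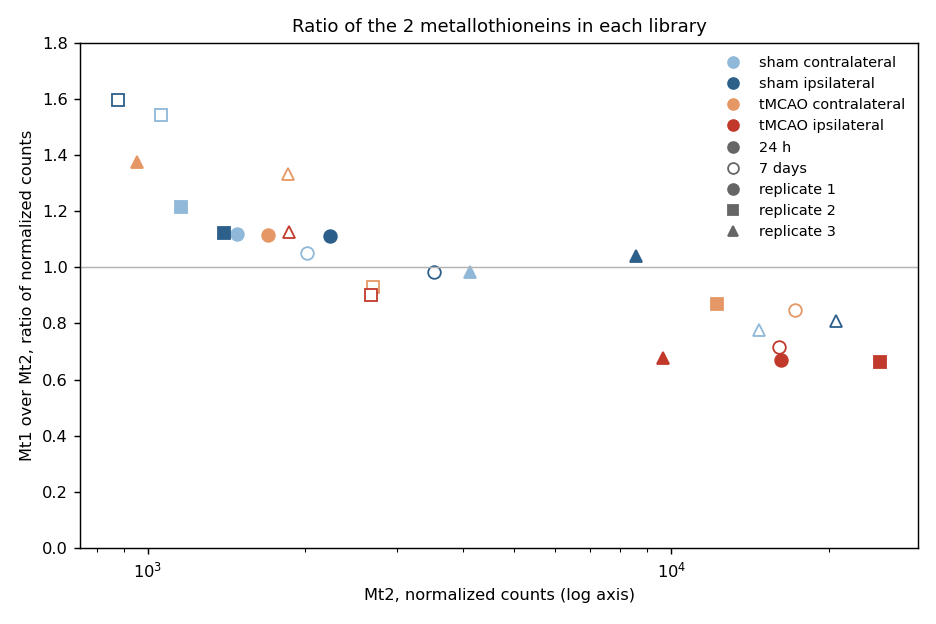
Ratio of Mt1 to Mt2 normalized counts (linear axis from 0) against the Mt2 level (log axis) in the 24 libraries, coloured by surgery and hemisphere, filled at 24 h and open at 7 days. The ratio falls from 1.60 at the lowest Mt2 level to 0.663 at the highest, and the 3 libraries of the ipsilateral hemispheres 24 h post-stroke (filled red) lie at 0.663 to 0.677.

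To see which genes ran most like the members, all genes tested were ranked by Pearson's r of log2 values over the 24 libraries, and the first 3 of each are given as a description. Hmox1 and Txnrd1 were each other's first (r = 0.974), followed for both by Ccl11, a chemokine for eosinophils, at r = 0.969. The third were the RNA helicase gene Ddx39 (0.961) for Hmox1 and the neutrophil chemokine gene Cxcl3 (0.956) for Txnrd1. For Gclm they were Esd (0.939), Taldo1 (0.935) and Psmd14 (0.926), and for Nqo1 they were Cptp (0.929), Nudt5 (0.917) and Pgd (0.908). Taldo1 and Pgd belong to the pentose phosphate pathway, which supplies NADPH. Srxn1 ran with Lrrc59 (0.953), Aig1 (0.951) and Nop14 (0.949), and Gclc with Uso1 (0.887), Slc7a6 (0.878) and Prg4 (0.875).

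Other genes accompanied the members that were not higher at 24 h. Nfe2l2 ran with Btg1 (0.926), P4ha1 (0.909) and Rgs16 (0.907). Next to the partner gene, Mt1 and Mt2 both had Tagln2 (0.961 and 0.970), and then Map2k3 (0.949) for Mt1 and Anxa7 (0.959) for Mt2. Slc7a11 ran with Coch (0.906), Dcn (0.896), a proteoglycan of connective tissue, and Gjb2 (0.889), a connexin. Since they were chosen over libraries that include those of low Slc7a11, their levels there are a description only. Ipsilaterally at 7 days, mean normalized counts were 56.7 post-stroke against 186 after sham surgery for Coch, 2094 against 4487 for Dcn and 116 against 459 for Gjb2.

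Genes around the members were examined by lists drawn up by function, of which the counts are given beside the shares over all genes tested (10% higher and 8.23% lower at 24 h, 3.27% and 9.95% at 7 days). Of 12 tested regulators of NRF2, among them Keap1, Bach1 and the small MAF genes, none was regulated at 24 h or 7 days (median log2 fold change -0.10 and -0.04). In limma's test 4 of the 12 had an unadjusted p under 0.05 at 24 h and 0 at 7 days, against 42.1% and 29.3% of all genes tested. Keap1 had a log2 difference of 0.15 ± 0.07 at 24 h (adjusted p = 0.143). Of 21 other genes known as targets of NRF2, 10 were higher and 2 lower at 24 h, with a median log2 fold change of 0.72. Taldo1 (1.79), the thioredoxin gene Txn1 (1.23) and Pgd (1.12) rose most, and the 2 lower ones were Aldh1a1 (-1.22), a retinal dehydrogenase, and the exporter gene Abcc4 (-0.84). At 7 days 0 of the 21 were regulated (median 0.10), and 7 had an unadjusted p under 0.05 in limma, 4 of them higher and 3 lower, where 29.3% of all genes had one.

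Glutathione and the removal of reactive oxygen made up 2 further lists. Of 16 genes of glutathione and cystine handling, 3 were higher at 24 h, namely Ggct (0.70), Glrx3 (0.64) and Glrx (0.61), and none was lower (median 0.35). At 7 days Gpx3, the glutathione peroxidase of plasma, was higher (1.22) and Gpx8 lower (-0.65). Of 18 genes that remove reactive oxygen, 4 were higher at 24 h, with the mitochondrial superoxide dismutase gene Sod2 (1.04), Prdx5 (0.77) and Sod1 (0.76) in front, and none was lower (median 0.45). At 7 days Txnip, the inhibitor of thioredoxin, was higher (1.17), and Sod3 (-0.74), the superoxide dismutase outside of cells, and Sesn3 (-0.66) were lower.

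Of 8 tested genes that are sources of reactive oxygen, mostly subunits of the phagocyte NADPH oxidase, 5 were higher at 24 h and 3 at 7 days, and none was lower. At 24 h Ncf4 (2.50), Rac2 (1.95) and Cybb (0.97) led, and at 7 days Ncf4 (1.28), Ncf1 (1.23) and Rac2 (1.12). These genes are known from neutrophils and macrophages. The neutrophil marker Csf3r had 304 to 527 normalized counts post-stroke against 51 to 128 after sham surgery at 24 h, and 130 to 292 against 48 to 122 at 7 days. S100a8 had 690 to 1404 against 62 to 320 at 24 h, and 142 to 1271 against 34 to 469 at 7 days, where the ranges overlapped. Summed microglia and macrophage markers (7 genes) overlapped at 24 h, with 3500 to 6601 against 3136 to 6027. At 7 days they did so with 3278 to 3765 against 3419 to 5270. The sum of neutrophil and monocyte markers also overlapped at 7 days (756 to 4124 against 291 to 1652). The part of these cells in the result was not tested.

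Downstream of heme oxygenase, both biliverdin reductases were higher at 24 h, Blvrb by 1.26 and Blvra by 0.76 on the log2 scale. Of 13 genes of heme and iron handling, 5 were higher and 2 lower. The hemoglobin-binding haptoglobin gene Hp rose by 3.76 and the ferritin light chain gene Ftl1 by 0.71. The ferritin heavy chain gene Fth1 did not pass at 24 h (0.38 ± 0.19, limma, adjusted p = 0.136). The transferrin receptor gene Tfrc (-1.24) and the iron exporter gene Slc40a1 (-0.88) were lower. At 7 days the ferritin heavy chain gene Fth1 was higher (1.01) and Slc40a1 lower (-0.76). Of 22 genes of zinc handling and further metallothioneins, the zinc importer genes Slc39a14 (0.86) and Slc39a1 (0.64) were higher and Slc39a12 (-1.51), Slc39a10 (-0.90) and Slc30a10 (-0.76) lower at 24 h. At 7 days Slc30a3 (-3.12), Slc39a12 (-1.85) and Slc30a10 (-0.80) were lower and none was higher. The zinc sensor gene Mtf1 had a log2 difference of 0.28 ± 0.13 at 24 h (limma, adjusted p = 0.12), and Mt3, the metallothionein of neurons and astrocytes, one of -0.31 ± 0.34 (adjusted p = 0.521).

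**Figure D5:**
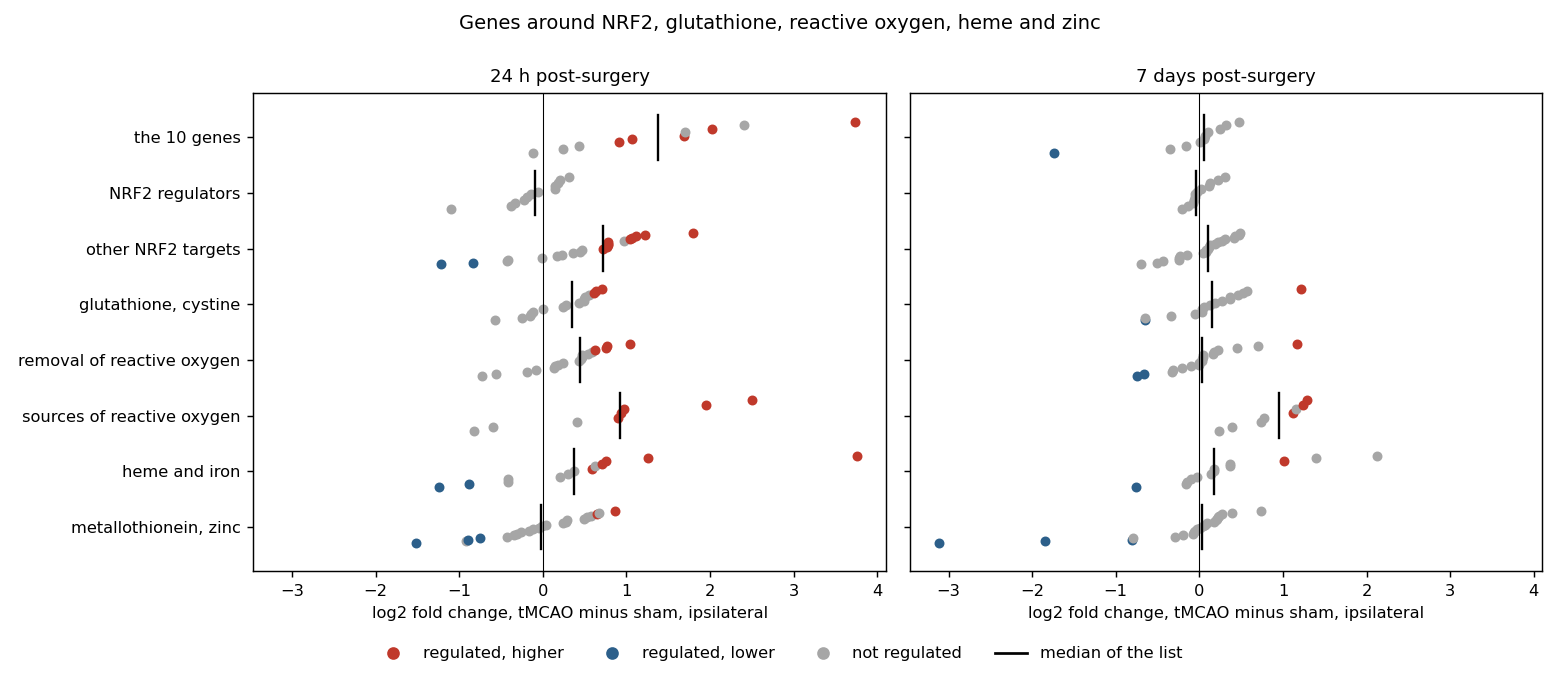
Log2 fold change, tMCAO minus sham surgery in the ipsilateral hemisphere, of each tested gene of 8 lists at 24 h (left) and 7 days (right), with 1 point per gene, red and blue for regulated genes and a line at the median of each list. At 24 h the medians are 1.37 for the 10 genes, 0.72 for other NRF2 targets and -0.10 for NRF2 regulators, and at 7 days 0.06, 0.10 and -0.04.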

How the data were processed

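Per the submitters' processing notes, reads were aligned to mm10 with STAR 2.5.2b, counted with featureCounts 1.5.1 and normalized with DESeq2 1.6.2. The deposited values are a score, since the authors divided reads by size factors and rounded the result to whole numbers, so that no count model was run on them. Groups were taken from the labels. Log2 values after addition of 1 were fitted with limma 3.58.1 (mean-variance trend, 8 groups in 1 fit) in R 4.3.3, with the data.table package, for the 15982 genes with a mean above 5. The Benjamini-Hochberg adjustment covered all of these. The fit was tested on simulated data. Promoters were searched and figures drawn with Python 3.11.15, pandas 2.3.3, numpy 2.4.6 and matplotlib 3.10.9. Levels per length used the median length of a gene's protein-coding transcripts in GENCODE.

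The 10 members and all gene lists were chosen with earlier results of these data known. All members are named, as are up to 3 regulated genes with the largest increase and decrease of each other list and the 3 genes with the highest r to each member. Keap1, Mtf1, Mt3, Ftl1, Fth1 at 24 h, single cell type markers and the neighbours in the control libraries were named after their values were seen. Same-numbered libraries of the sham hemispheres deviated together (residual r of 0.145 to 0.410 at 24 h and 0.325 to 0.467 at 7 days), a pairing inferred from the data alone. Alternatives were other pseudocounts, filters and scalings, a replicate block, only the compared groups, no limit on the fold change, a correction for length and GC content, and each library left out.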

Additional observations from a re-analysis of the deposited data

Results flagged for a closer look

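For 6 of the 10 genes the ipsilateral stroke effect differed between the time points by limma's test of the difference itself (effect at 7 days minus effect at 24 h, log2 scale). The values were -3.26 for Hmox1, -2.04 for Srxn1, -1.77 for Nqo1, -1.62 for Slc7a11, -0.85 for Txnrd1 and -0.74 for Gclm. In Slc7a11 the effect at 24 h was -0.12 and that at 7 days -1.74, whereas in the other 5 genes the effect at 24 h was higher than sham surgery and that at 7 days between -0.35 and 0.47.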

How the results depend on the processing

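The 5 genes higher and 0 lower at 24 h, and Slc7a11 lower at 7 days, were called under every alternative run. Gclc was called in addition at 24 h after the correction for length and GC content (0.60), with or without a replicate block. It was also called without a limit on the fold change (0.44), and Mt2 when only the compared groups were fitted. Median centring raised the log2 difference of all genes from 24 h to 7 days post-stroke by 0.11, and then Gclm (-0.55) and Gclc (-0.52) were no longer called there, as with the correction for length and GC content (-0.56 and -0.54). Gclm also lost this call with only the compared groups fitted (adjusted p = 0.0697) and with the 8 libraries of high Mt2 left out (0.0665). Its interaction lost the call under these settings as well (adjusted p up to 0.189). The correction for length and GC content combined with a replicate block also removed these calls of Gclm and that of Gclc. The count of the interaction was 4 to 6 and that of 7 days against 24 h was 5 to 7 over all alternatives.

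The replicate number as a block changed no count of members called in comparisons against sham surgery (5 higher at 24 h, 1 lower at 7 days). Whether same-numbered libraries post-stroke come from the same mice is not stated. Their residual r was 0.066 to 0.360 at 24 h and 0.059 to 0.309 at 7 days. With the same-numbered hemispheres as a block, 7 instead of 5 members were higher ipsilaterally at 24 h, by the addition of Mt1 (1.83 ± 0.29, limma, adjusted p = 3.48e-04) and Mt2 (2.54 ± 0.34, adjusted p = 9.63e-05). At 7 days 1 instead of 0 was higher, namely Hmox1 (0.81 ± 0.23, adjusted p = 0.0207). The block changed no call between the sham hemispheres. The depth in reads is unknown, since the values are normalized and rounded.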

Other observations

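Over the 18 control libraries, the log2 values of 70 genes had a Pearson r above 0.9 with those of Mt2, led by Mt1 (0.993), Tagln2 (0.969), Tes (0.967) and Clic1 (0.964). For Mt1 there were 61 such genes, among them Trib1 (0.967). The libraries share their normalization, and the highest values of Mt1 and Mt2 lie in the replicate numbers named in the report.

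Contralaterally post-stroke, 3 of the 10 genes had lower values at 7 days than at 24 h at limma's unadjusted p under 0.05. Of all genes tested, 16.5% had such a p in either direction. Of the 10 genes, 0 passed the adjustment. The share of all genes tested without overlap in this comparison is not given here. Slc7a11 had 1319, 1134 and 1599 normalized counts at 7 days against 2099, 1674 and 2636 at 24 h, without overlap (log2 difference -0.65 ± 0.21, adjusted p = 0.158). Hmox1 had 345, 222 and 247 against 534, 510 and 438, also without overlap (-0.88 ± 0.35, adjusted p = 0.218). Gclc had 710, 543 and 620 against 736, 841 and 675, with overlap (-0.27 ± 0.11, adjusted p = 0.227).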
